A study of Mus musculus with 4 samples.

Results

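Open chromatin at 7 genes of sensory neurons and the neural crest was described in mouse cervical motor neurons at embryonic day 12.5. ATAC-seq, in which the transposase Tn5 tags accessible DNA, was done on cells sorted for the ChAT::GFP transgene, a reporter of choline acetyltransferase, the enzyme of cholinergic neurons. The groups were 2 libraries from Hoxa5-deficient embryos and 2 from their control littermates, both carrying the reporter. Hoxa5 encodes a homeodomain factor of the Hox5 group; the labels give neither its mutant allele nor the number of embryos in a library. The sensory neuron genes were Pou4f1, Runx3 and Prdm12, and the neural crest genes were Sox10, Foxd3, Foxs1 and Ednrb. Peak intervals of the 4 libraries that overlapped by 1 bp or more were merged into regions. Each region was assigned by its midpoint, to a protein-coding gene where it fell inside the body (the shortest of nested bodies) and otherwise to the nearest body within 100 kb. This gave 109 regions at the 7 genes, out of 165822 assigned to any protein-coding gene and 199576 in all.

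The neural crest is a migratory population that leaves the dorsal neural tube and forms sensory ganglia, glia of peripheral nerves, enteric neurons and pigment cells. Sox10, an HMG-box factor, and Foxd3, a forkhead factor, maintain crest progenitors, and Ednrb is the endothelin receptor needed by enteric and pigment cell precursors. In the ganglia, the POU-domain factor Pou4f1 (Brn3a) is shared by most sensory neurons, Runx3 directs proprioceptive neurons and Prdm12 is needed for pain-sensing neurons. Foxs1 is a forkhead gene expressed in early sensory neurons of the mouse. Some of the genes are also used inside the spinal cord, such as Pou4f1 in dorsal interneurons and Prdm12 and Foxd3 in progenitors and neurons of the V1 lineage. Motor neurons are not among the cells these genes are known to define.

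The sequences before 5 gene starts are shown because these starts differ in whether a peak covers them and in how strong that peak is. Each is the 250 bases before an annotated start, 5′ to 3′ on the gene's strand, from RefSeq (GRCm38.p6, the coordinates of mm10). The promoter table held 6 starts of 5 of the 7 genes. Capitals mark matches to 6 motifs searched on both strands: TGTGGTT (RUNX), ACAAAG (SOX), TAATTA (homeodomain), TGATNNAT (Hox with Pbx), GCCNNNGGC (TFAP2) and CAGCTG (E-box).
Pou4f1 (chr14:104468000-104468249, minus strand): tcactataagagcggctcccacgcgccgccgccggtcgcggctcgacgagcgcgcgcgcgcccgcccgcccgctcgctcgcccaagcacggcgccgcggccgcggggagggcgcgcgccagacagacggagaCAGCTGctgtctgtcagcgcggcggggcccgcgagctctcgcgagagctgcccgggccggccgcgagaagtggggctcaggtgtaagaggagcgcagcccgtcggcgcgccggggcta
Runx3 upstream start (chr4:135120395-135120644, plus strand): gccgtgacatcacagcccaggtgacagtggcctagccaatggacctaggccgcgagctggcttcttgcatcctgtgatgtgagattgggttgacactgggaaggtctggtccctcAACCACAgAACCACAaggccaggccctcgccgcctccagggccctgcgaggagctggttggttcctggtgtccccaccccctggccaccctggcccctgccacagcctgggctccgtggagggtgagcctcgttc
Runx3 downstream start (chr4:135152295-135152544, plus strand): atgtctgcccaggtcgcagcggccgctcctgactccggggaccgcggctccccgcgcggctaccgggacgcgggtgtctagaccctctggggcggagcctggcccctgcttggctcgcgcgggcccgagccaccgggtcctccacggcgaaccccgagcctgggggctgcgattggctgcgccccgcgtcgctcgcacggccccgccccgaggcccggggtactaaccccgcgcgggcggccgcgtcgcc
Prdm12 (chr2:31639787-31640036, plus strand): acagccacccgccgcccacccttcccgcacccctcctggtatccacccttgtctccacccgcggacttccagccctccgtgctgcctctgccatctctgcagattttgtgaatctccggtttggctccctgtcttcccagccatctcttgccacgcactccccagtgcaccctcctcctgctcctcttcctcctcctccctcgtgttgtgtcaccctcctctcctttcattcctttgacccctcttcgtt
Foxd3 (chr4:99656049-99656298, plus strand): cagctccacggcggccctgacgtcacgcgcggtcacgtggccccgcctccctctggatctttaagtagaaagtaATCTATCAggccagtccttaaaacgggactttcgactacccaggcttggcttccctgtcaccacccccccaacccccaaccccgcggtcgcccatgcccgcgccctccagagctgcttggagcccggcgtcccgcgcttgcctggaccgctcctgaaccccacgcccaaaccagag

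The upstream Runx3 start held 2 RUNX matches on the minus strand, at bases 116 to 122 and 124 to 130, and no library had a peak over it. The downstream Runx3 start held none of the motifs and 38 CpG dinucleotides, against 8 before the upstream start, and it was covered by a peak in all 4 libraries. The window before Pou4f1 held 47 CpG, a number reached by 0.250% of the 32851 promoter windows compared. It lay under the strongest shared peak of the 7 genes. The Foxd3 window held a Hox with Pbx match at bases 75 to 82, on the minus strand, under a peak at the 20.9th and 1.68th percentile of the Hoxa5-deficient lists and the 50.03rd and 28.9th of the control lists. The Prdm12 window held none of the 6 motifs and no peak. A RUNX match occurred in 4.40% of all promoter windows of this length, a Hox with Pbx match in 7.68% and an E-box match in 13.0%.

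Regions at the 7 genes were found in the libraries about as often as regions at other genes. The Hoxa5-deficient libraries held 64 and 73 of the 109 regions, and the control libraries 65 and 60. The difference of 6 regions between the means did not exceed the spread between replicates (two-sided exact permutation test, p = 0.667; the smallest p that 2 libraries against 2 allow is 0.333). Its direction turned with equal numbers of peaks per list (-8.5 regions) and with midpoints inside gene bodies (-1). As a share of all regions in the library these were 0.0521% and 0.0545% in the Hoxa5-deficient and 0.0592% and 0.0562% in the control libraries (two-sided exact permutation test, p = 0.333). All 4 libraries held a peak in 38 regions, which is 34.9% of the 109, against 34.7% of all assigned regions. Peaks of 3 libraries made up 10 regions (9.17%, against 9.66%), and 1 library of each genotype held 9 (8.26%, against 4.48%). A single library held 42 (38.5%, against 38.5%), whose peaks had a median percentile of 10.03 within their list, against 67.7 for the 38 shared regions. This percentile ranks a peak by its −log10 p among all summits of its list, 100 being the strongest. In sorted bulk cells, fewer cells of a type and less open DNA per cell cannot be told apart.

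Mutant-only regions, with a peak in both Hoxa5-deficient and neither control library, numbered 7 of 109 (6.42%), against 9.16% of all assigned and 10.3% of all regions. Control-only regions, with the reverse pattern, numbered 3 (2.75%), against 3.5% of all assigned and 3.42% of all regions. Both shares lay below the background. With equal numbers of peaks per list the order of the 2 counts turned, to 5 mutant-only (5.38%, against 6.76%) and 8 control-only regions (8.60%, against 5.73%). Among peaks whose −log10 q reached 5 there were 4 mutant-only (7.27%, against 12.1%) and 6 control-only (10.9%, against 4.44%). The control-only share thus lay above the background in both settings. It was also above within 20 kb of the body (5.08%, against 3.50%) and without Hoxa5-deficient library 2 (6.25%, against 6.05%). It lay below with windows of 100 bp to each side of summits (2.10%, against 3.41%) and with midpoints inside gene bodies (2.63%, against 3.40%). Leaving out Hoxa5-deficient library 1, control library 1 or control library 2 also put it below, so its side of the background depends on the setting. Mutant-only regions lay at Ednrb (4), Pou4f1 (2) and Runx3 (1), and control-only regions at Ednrb, Foxd3 and Runx3 (1 each). Prdm12, Sox10 and Foxs1 had neither kind.

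**Figure D1:**
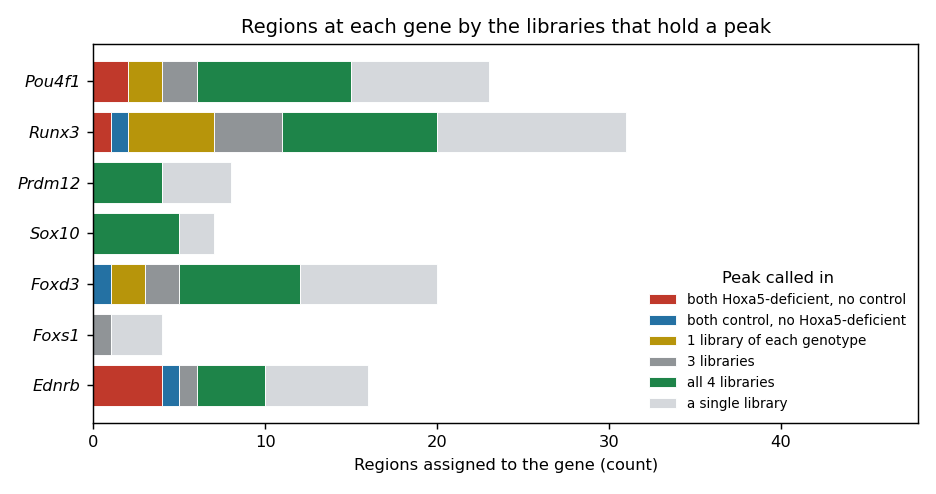
Number of regions assigned to each of the 7 genes, with bar segments for the libraries that hold a peak. Runx3 had 31 regions and Foxs1 had 4, and the 7 mutant-only and 3 control-only regions are small parts of the bars.

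3 readings of a peak are used below. The rank percentile orders the 65789 regions held by all 4 libraries by −log10 p in each library, so that the same regions are ranked in each. Depth-scaled tags are the whole tag count at the strongest summit, recovered from the authors' fold and p-value, divided by the lowest background of that library. That lowest background scales with depth and was 5.14 and 6.06 tags in the Hoxa5-deficient and 5.43 and 4.39 tags in the control libraries. The local background ratio is the background around a summit divided by the same lowest background, and covers a wider stretch that can include the peaks themselves. The authors' p-value is set against this local background, so ranks and scaled tags can differ. Scaled tags and their ratios are given only at regions of the genes described here, without a share of all shared regions. Dividing by the lowest background adjusts for depth alone. Whether a shift across a whole library adds to differences in scaled tags was not tested.

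Of the 38 shared regions, 10 ranked higher in both Hoxa5-deficient libraries than in both controls (26.3%, against 27.6% of all assigned shared regions). Another 15 ranked lower in both (39.5%, against 33.7%), and in 13 the genotypes overlapped. When −log10 q had to reach 5, the order turned, with 10 of 25 higher (40%, against 27.3%) and 8 lower (32%, against 32.7%). The sensory neuron genes had 8 higher and 6 lower of 22 shared regions (36.4% and 27.3%). Pou4f1 gave 4 of the higher and 1 of the lower, Runx3 2 and 3, and Prdm12 2 and 2. The neural crest genes had 2 higher and 9 lower of 16 (12.5% and 56.25%). The median rank difference, Hoxa5-deficient minus control, was 4.29 points at the sensory neuron genes and -11.2 points at the neural crest genes. Over all assigned shared regions that median was -0.74 points.

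Less local background was seen at many shared regions of these genes. It was lower in both Hoxa5-deficient libraries at 15 of the 38 shared regions (39.5%, against 12.9% of all assigned shared regions). It was higher in both at 6 (15.8%, against 31.9%). At the 10 motor neuron genes described below, it was lower at 18.4% and higher at 16.3% of the shared regions. Regions within 10 kb of each other share their surroundings, and with 1 region per 10 kb the counts were 8 lower and 5 higher of 23, against 10.7% and 31.5% of all. Foxd3 gave 6 of the 15 lower regions, Prdm12 and Ednrb 3 each, Runx3 2 and Sox10 1. Pou4f1 gave none.

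**Figure D2:**
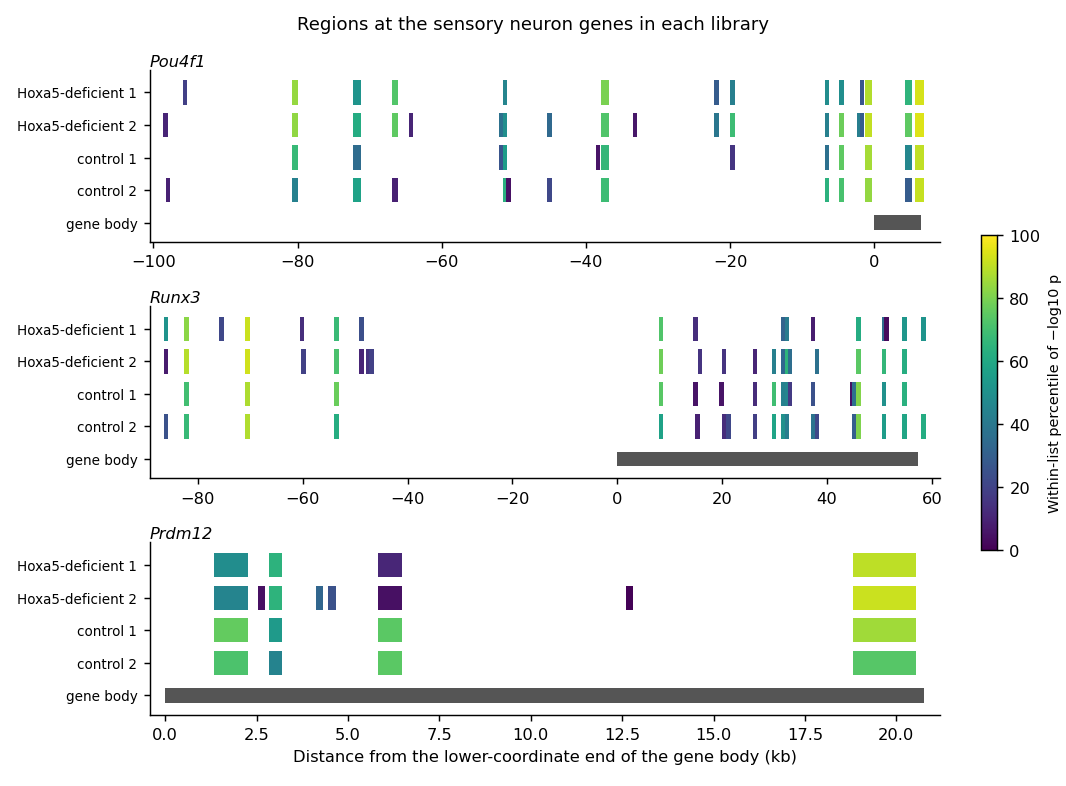
Regions at the sensory neuron genes Pou4f1, Runx3 and Prdm12 in each library (rows), by distance in kb from the lower-coordinate end of the gene body (grey bar); blocks span the merged region, widened where too narrow to see, and colour gives the within-list percentile. The Prdm12 block at about 6 kb is dark in both Hoxa5-deficient rows (percentiles 10.8 and 4.06) and green in both control rows (74.6 and 74.3).

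Pou4f1 lies on chromosome 14 from 104461675 to 104468118 (mm10), on the minus strand, and had 23 regions, 9 of them in all 4 libraries. The region over its start (104467260 to 104468614, 1355 bp) was the strongest of the 38 shared regions. Its within-list percentiles were 93.4 and 94.8 in the Hoxa5-deficient libraries and 90.5 and 91.4 in the controls. It held 212 and 363 tags in the Hoxa5-deficient and 165 and 152 in the control libraries, which scaled to 41.3 and 59.9 against 30.4 and 34.7. Both Hoxa5-deficient values were above both control values, a pattern in scaled tags that was not counted over all shared regions. Ranked by fold enrichment the genotypes overlapped. The mean rank percentiles differed by 4.06 points, and 31.6% of all shared regions differed as far in that direction.

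Another 3 shared regions at Pou4f1 ranked higher in both Hoxa5-deficient libraries. The region inside the gene (104465859 to 104466827), 1.66 kb downstream of the start, had rank percentiles of 39.6 and 51.1 in the Hoxa5-deficient and 20.9 and 10.01 in the control libraries. Its depth-scaled tags were 14.2 and 22.3 against 9.21 and 8.21, a ratio of means of 2.10. At the other end of the gene, the region from 104460324 to 104461370 had scaled tags of 23.5 and 33.5 in the Hoxa5-deficient and 19.9 and 19.6 in the control libraries. In rank, 29.0% of all shared regions differed as far in that direction, and 6.42% differed as far as the region inside the gene. The local background ratio over the start was 4.17 and 5.73 in the Hoxa5-deficient and 3.78 and 3.90 in the control libraries, again without overlap.

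The largest upward difference in rank at Pou4f1 lay 80.4 kb below the gene, at 104380929 to 104381720. The region held 70 and 87 tags in the Hoxa5-deficient libraries (95% exact Poisson intervals 54.6 to 88.4 and 69.7 to 107) and 37 and 19 in the controls (26.1 to 51.0 and 11.4 to 29.7). These intervals cover counting error alone and are not scaled by depth. Depth-scaled tags were 13.6 and 14.4 in the Hoxa5-deficient and 6.81 and 4.33 in the control libraries. Rank percentiles were 69.5 and 65.6 against 44.9 and 19.8, a difference of 35.2 points between the means. A difference at least as large in that direction was seen in 4.43% of all shared regions. Its local background was the lowest of the library in all 4.

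Further regions below Pou4f1 were called in fewer libraries. The region at 104394822 to 104395554, 66.5 kb below, held 44 and 60 tags in the Hoxa5-deficient libraries, 12 in control library 2 and no called peak in control library 1. Mutant-only regions lay at 104439647 to 104439903 with 17 and 23 tags and at 104459826 to 104460035 with 30 and 42 tags. Neither was mutant-only when −log10 q had to reach 5. One region ran the other way, at 104410275 to 104410604, with rank percentiles of 17.8 and 18.8 in the Hoxa5-deficient and 29.8 and 41.3 in the control libraries. The remaining 4 shared regions of Pou4f1 overlapped between the genotypes.

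Runx3 spans chromosome 4 from 135120645 to 135177990, on the plus strand, and had 31 regions, 20 inside the gene body and 9 in all 4 libraries. Its 2 annotated starts differed in every library: none had a peak within 1 kb of the upstream start, and all had one over the downstream start. The peak over the downstream start (135152126 to 135152622) held 20 and 26 tags in the Hoxa5-deficient and 29 and 26 in the control libraries. Its rank percentiles were 8.64 and 7.80 against 18.5 and 26.1, and 17.5% of all shared regions differed as far in that direction. The adjoining region (135152706 to 135153332) had 23 and 49 tags against 30 and 23, and the genotypes overlapped.

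Inside and outside Runx3 the shared regions that differed ran in opposite directions. Far upstream, the region 82.1 kb below the gene (135038082 to 135038987) had rank percentiles of 66.6 and 75.3 in the Hoxa5-deficient and 48.4 and 46.9 in the control libraries. It held 72 and 143 tags against 40 and 33, which scaled to 14.0 and 23.6 against 7.36 and 7.52. The strongest Runx3 region, 70.5 kb below (135049809 to 135050477), had scaled tags of 26.7 and 32.9 against 17.9 and 18.5. In rank, 10.1% of all shared regions differed as far in that direction as the first region, and 28.3% as far as the second. Both regions lay nearest to Runx3 among protein-coding genes, which does not show that they act on it.

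Within the gene, the region at 135166326 to 135167077 held 33 and 65 tags in the Hoxa5-deficient and 80 and 60 in the control libraries. Scaled, these were 6.42 and 10.7 against 14.7 and 13.7, a ratio of 0.604, and the rank percentiles were 34.9 and 50.2 against 66.0 and 66.4. The neighbouring control-only region (135165762 to 135166103) had 27 and 18 tags in the controls. The 1 mutant-only region at Runx3 (135071701 to 135071983) lay 48.8 kb below the gene, with 16 and 15 tags in the Hoxa5-deficient libraries. At the last shared region inside the gene (135175042 to 135175962) rank percentiles were 24.5 and 32.2 against 40.1 and 35.3, but scaled tags overlapped.

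Prdm12 spans chromosome 2 from 31635026 to 31655795 and had 8 regions, all inside the body. Its start in the promoter table lies within the body, on the plus strand, just after the window shown above. All 4 of its shared regions separated the genotypes by rank, 2 higher and 2 lower in the Hoxa5-deficient libraries. Of all assigned shared regions, 27.6% ranked higher and 33.7% lower by the same rule. The largest difference in rank among the 38 shared regions lay 1.14 kb downstream of the start, at 31640837 to 31641510. There the summit held 18 and 19 tags in the Hoxa5-deficient libraries (95% exact Poisson intervals 10.7 to 28.4 and 11.4 to 29.7) and 83 and 67 in the controls (66.1 to 103 and 51.9 to 85.1). The intervals cover counting error alone, since tags may include copies of 1 molecule.

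The same Prdm12 region had rank percentiles of 1.94 and 0.492 in the Hoxa5-deficient libraries and 55.5 and 56.7 in the controls. Within the full lists it stood at the percentiles 10.8 and 4.06 in the Hoxa5-deficient libraries and 74.6 and 74.3 in the controls. Scaled by depth, 3.50 and 3.14 stood against 15.3 and 15.3, a ratio of 0.217. A difference as large in this direction was seen in 0.271% of all shared regions. When −log10 q had to reach 5, or with equal numbers of peaks per list, the region was control-only.

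A second Prdm12 region, centred at -3.21 kb from the start (31636373 to 31637286), had 31 and 36 tags in the Hoxa5-deficient and 88 and 64 in the control libraries. Its scaled tags were 6.03 and 5.94 against 16.2 and 14.6, a ratio of 0.389. Between these lay a region centred at -2 kb (31637856 to 31638219) that ranked higher in the Hoxa5-deficient libraries, at 38.3 and 35.6 against 28.7 and 20.9. Its scaled tags overlapped (8.37 and 9.25 against 9.94 and 8.89), and ranked by tags it was lower in both Hoxa5-deficient libraries, so its direction depends on which value is ranked. Its local background ratio was 1.67 and 1.85 in the Hoxa5-deficient and 3.55 and 3.30 in the control libraries. Around the 3 shared regions near the start, the Hoxa5-deficient mean was 0.486 to 0.523 of the control mean.

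The far end of Prdm12 showed the opposite pattern. The region at 31653848 to 31655567, inside the body and the strongest of the gene, held 117 and 202 tags in the Hoxa5-deficient and 86 and 45 in the control libraries. Scaled tags were 22.8 and 33.4 against 15.8 and 10.3, a ratio of 2.15, and the local background ratio was 1.746 and 2.33 against 1.46 and 1.35. In rank, 15.6% of all shared regions differed as far in this direction. The next gene, Exosc2, begins 14.9 kb above the body. The other 4 Prdm12 regions were each called in Hoxa5-deficient library 2 alone.

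**Figure D3:**
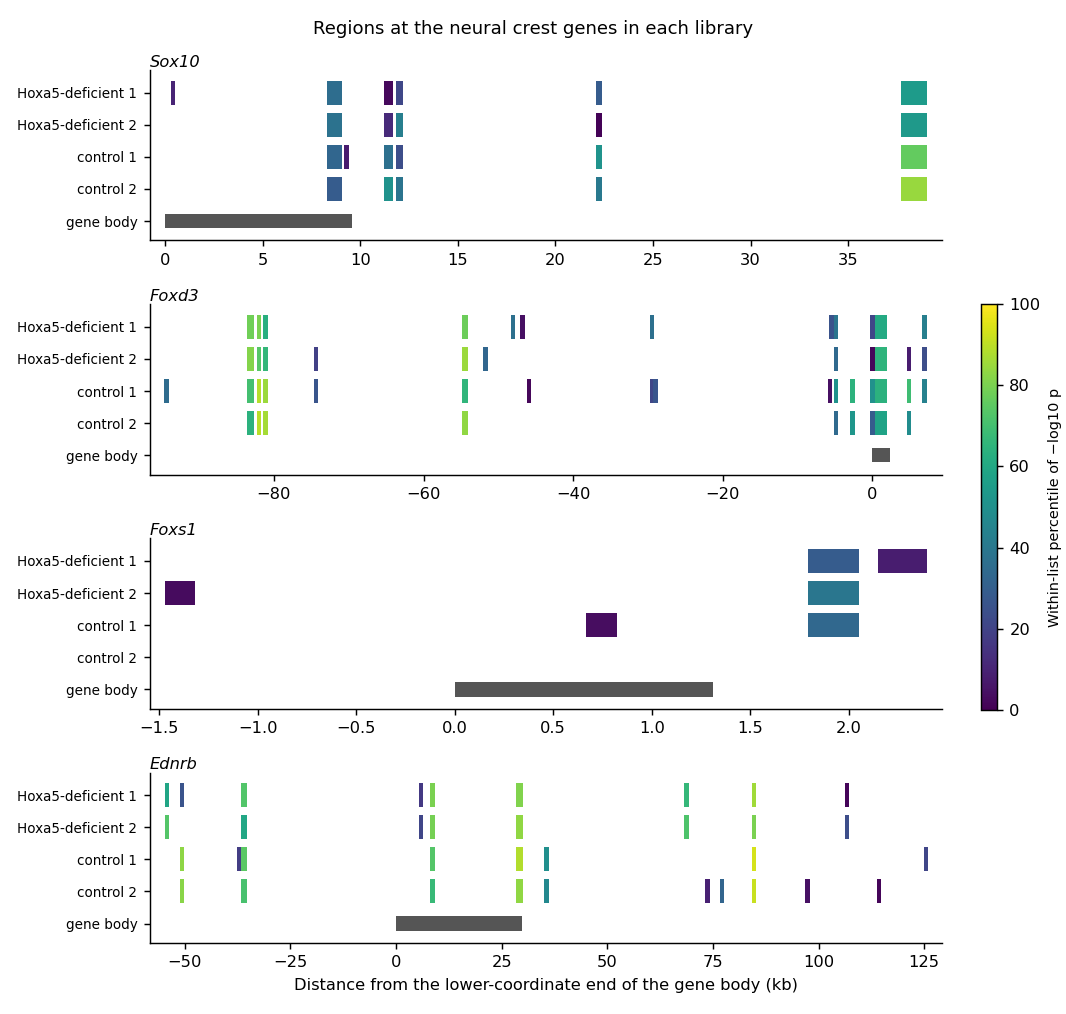
Regions at the neural crest genes Sox10, Foxd3, Foxs1 and Ednrb in each library (rows), by distance in kb from the lower-coordinate end of the gene body (grey bar); blocks span the merged region, widened where too narrow to see, and colour gives the within-list percentile. The farthest Sox10 region stood at 54.4 and 53.8 in the Hoxa5-deficient libraries and at 76.1 and 84.5 in the controls, and control library 2 has no peak at Foxs1.

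Sox10 lies on chromosome 15 from 79154913 to 79164490 and had 7 regions, 5 of them in all 4 libraries. Its body had 1 shared region (79163224 to 79163998), near the upper-coordinate end, where the genotypes overlapped. It held 21 and 25 tags in the Hoxa5-deficient and 23 and 16 in the control libraries, and the rank percentiles, 10.7 and 10.3 against 11.2 and 9.97, overlapped as well. No peak shared by all 4 libraries was the nearest one to either end of the gene.

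Sox10 regions above the gene body ranked lower in the Hoxa5-deficient libraries in 3 of 4 cases (33.7% of all assigned shared regions ranked lower). The strongest, 28.8 kb above (79192614 to 79193936), held 27 and 31 tags in the Hoxa5-deficient libraries (95% exact Poisson intervals 17.8 to 39.3 and 21.1 to 44.0) and 61 and 68 in the controls (46.7 to 78.4 and 52.8 to 86.2). Its rank percentiles were 26.4 and 22.8 against 57.7 and 72.0, a difference of -40.2 points, and 1.87% of all shared regions differed as far in this direction. Scaled tags were 5.25 and 5.12 against 11.2 and 15.5, a ratio of 0.388. The regions 1.86 kb (79166113 to 79166587) and 12.7 kb above (79177010 to 79177307) had 13 and 17 tags against 24 and 22, and 17 and 12 against 25 and 18. At both, the exact Poisson intervals of the genotypes overlapped. In rank, 12.0% and 13.0% of all shared regions differed as far in this direction. With equal numbers of peaks per list the nearer one was control-only and the other was held by 3 libraries.

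Foxd3, with a body of 2.37 kb on chromosome 4 (99656299 to 99658671, plus strand), had 20 regions, 7 in all 4 libraries. Over its start the region at 99655965 to 99656561 held 24 and 19 tags in the Hoxa5-deficient and 47 and 30 in the control libraries. Scaled tags were 4.67 and 3.14 against 8.65 and 6.84, and rank percentiles 4.56 and 0.172 against 24.6 and 10.005. With equal numbers of peaks per list this region was held by 3 libraries. The region covering most of the body (99656688 to 99658186) had overlapping ranks of 33.7 and 36.3 against 40.5 and 34.8, with scaled tags that did not overlap, 8.17 and 8.92 against 10.9 and 9.58. The control-only region 2.69 kb upstream of the body (99653392 to 99653831) was the strongest by tags of the 3 control-only regions, with 62 and 41 tags.

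Away from Foxd3, a group of 3 shared regions lay 81.1 to 83.1 kb upstream. The outer one (99572746 to 99573592) ranked higher in the Hoxa5-deficient libraries, with 59.3 and 62.1 against 48.8 and 42.1. As far a difference in that direction was seen in 16.1% of all shared regions. The other 2 ranked lower. At 99573985 to 99574580 the scaled tags were 15.2 and 12.9 in the Hoxa5-deficient and 24.7 and 29.0 in the control libraries. At 99575013 to 99575396 they were 9.15 and 10.2 against 20.3 and 25.1, a ratio of 0.428. The local background ratio across the group was 2.07 to 2.19 in the Hoxa5-deficient and 2.85 to 3.58 in the control libraries, and at the start of the gene 2.01 and 1.77 against 3.15 and 2.93.

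Foxs1, of 1.31 kb on chromosome 2 (152931898 to 152933208), had the fewest regions, 4, and none in all 4 libraries. The most widely held one, 0.611 kb above the gene (152933690 to 152933949), had 17 and 23 tags in the Hoxa5-deficient libraries, 19 in control library 1 and no called peak in control library 2. The only region inside the body was a peak of control library 1, with 13 tags. Whether Foxs1 differed between the genotypes was not detectable at this depth.

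Ednrb spans chromosome 14 from 103814615 to 103844508, on the minus strand, and had 16 regions, 4 in all 4 libraries. The region over its start (103842972 to 103844576) had rank percentiles of 63.7 and 65.5 in the Hoxa5-deficient and 77.3 and 70.5 in the control libraries. Its tags were 68 and 103 against 117 and 73, and scaled tags overlapped (13.2 and 17.01 against 21.5 and 16.6). A region inside the gene 20.5 kb downstream of the start (103822657 to 103823818) was stronger in the Hoxa5-deficient libraries, with scaled tags of 12.1 and 12.5 against 8.65 and 7.75. The strongest Ednrb region, 54.8 kb above the body (103898727 to 103899868), held 83 and 80 tags against 175 and 120, which scaled to 16.2 and 13.2 against 32.2 and 27.4, a ratio of 0.493.

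Of its 16 regions, Ednrb had 4 mutant-only (25%, against 9.16% of all assigned regions) and 1 control-only (6.25%, against 3.5%). Without Hoxa5-deficient library 1, Pou4f1 had 6 mutant-only regions and Runx3 5, against 4 at Ednrb and 4 at Prdm12. A peak in Hoxa5-deficient library 2 and in no control is then enough. That held for 21% of the regions at the 7 genes, against 23.7% of all assigned regions. Among peaks whose −log10 q reached 5, Ednrb and Pou4f1 had 2 each, and those at Pou4f1 were not the mutant-only regions named above. Of its 4 mutant-only regions, those at 103759973 to 103760803 and 103882959 to 103883698 held the most tags, with 30 and 56 tags and 36 and 53 tags. These ranked highest of the 7 mutant-only regions, and both were still mutant-only when −log10 q had to reach 5, which the others were not. The next region above the first of them, at 103763362 to 103764468, held 17 tags in Hoxa5-deficient library 1, no called peak in library 2, and 71 and 58 tags in the controls. The control-only region lay 5.77 kb above the body, on the side of the start (103850103 to 103850444), with 24 and 20 tags. The other mutant-only regions, inside the gene (103820333 to 103820697) and 76.9 kb above it (103921239 to 103921507), held 17 and 20, and 11 and 18 tags.

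**Figure D4:**
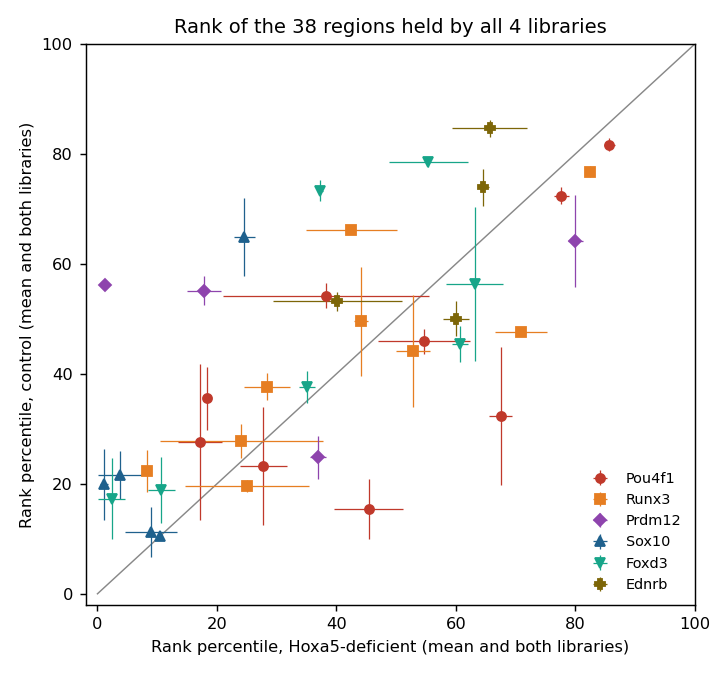
Rank percentile of −log10 p among regions held by all 4 libraries, for the 38 shared regions of the 7 genes; points are means of the 2 Hoxa5-deficient (x axis) and 2 control libraries (y axis), and bars reach both libraries. Points above the diagonal rank higher in controls; the Prdm12 region at 1.94 and 0.492 against 55.5 and 56.7 lies at the far left.

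**Figure D5:**
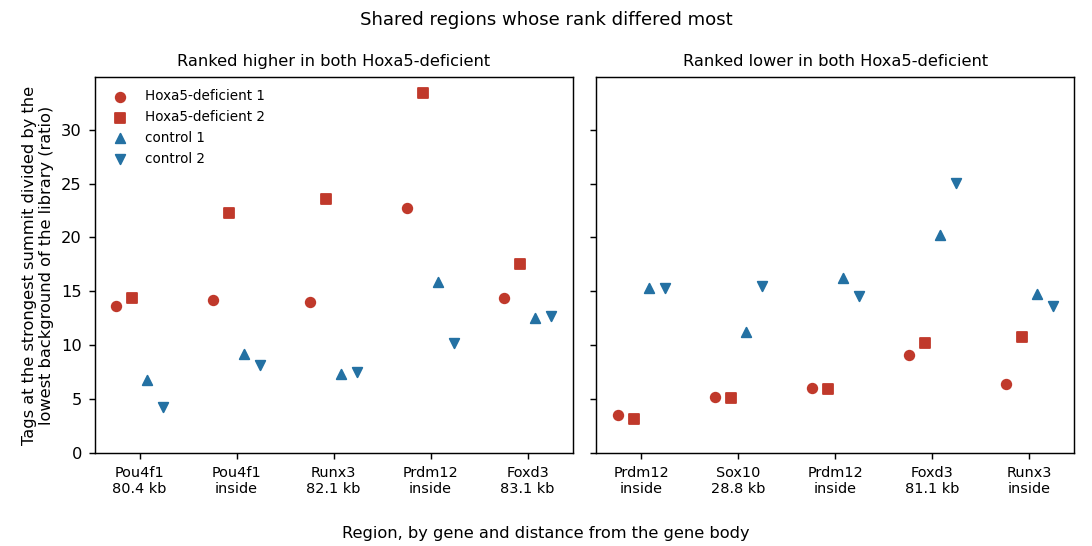
Depth-scaled tags (ratio, from 0) in each library at the 5 shared regions per direction with the largest rank difference, out of those without overlap in rank. Red symbols are the 2 Hoxa5-deficient and blue the 2 control libraries. The scaled tags of the genotypes do not overlap either, from 3.50 and 3.14 against 15.3 and 15.3 at Prdm12 to 14.0 and 23.6 against 7.36 and 7.52 at Runx3. They derive in part from the p-value that was ranked, so they are no separate evidence.

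The gene ends of the 7 genes were compared with those of motor neuron genes as a check of the cell label. A region held by all 4 libraries was the nearest one within 1 kb of an end at 4 of the 7 genes (Pou4f1, Prdm12, Foxd3 and Ednrb), at 8 of 10 motor neuron genes and at 63.1% of all protein-coding genes. This is not a count of open starts, since either end of the body counts. Prdm12 counted only through its far end, and Runx3 did not count although a shared region covered its downstream start. At Sox10 a peak of a single library lay nearer to the upper-coordinate end than the shared region inside the body. Among the 8 motor neuron genes, Chat and Slc18a3 had identical end percentiles in all 4 libraries, so 1 end region appears to be counted for both. At Chat, which encodes the enzyme that makes acetylcholine, its percentiles were 92.7 and 94.6 in the Hoxa5-deficient and 81.4 and 87.0 in the control libraries. At Isl1, a LIM factor of motor and sensory neurons, they were 87.8 and 90.9 against 90.1 and 87.6. At Mnx1, a motor neuron determinant, they were lower, at 38.03 and 55.7 against 40.7 and 3.17. The end regions of Chat, Isl1 and Pou4f1 were thus all strong, and the share of sorted cells that were not motor neurons was not measured. Of 9 blood, endothelial and muscle genes, 3 had such an end, and Hbb-y and Gata1 had no region at all. The mean percentile of that end was 86.05 at Spi1 (blood), 87.02 at Kdr (endothelium) and 85.98 at Myod1 (muscle), close to Chat and Isl1 and above the motor neuron list's median of 61.4.

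Other genes of the same cell types were read from longer lists. The 22 other crest and glial genes had 374 regions, of which 20 were mutant-only (5.35%, against 9.16%) and 28 control-only (7.49%, against 3.5%). Of their 135 shared regions, 20 ranked higher and 72 lower in both Hoxa5-deficient libraries (14.8% and 53.3%, against 27.6% and 33.7%). Their local background was lower in both Hoxa5-deficient libraries at 57 of the 135 (42.2%, against 12.9%) and higher at 20 (14.8%, against 31.9%). Mitf, the regulator of pigment cells, had 4 mutant-only and 6 control-only regions, and the homeodomain genes Msx1 and Pax7 had 2 and 4 each. Ret, a receptor of enteric and motor neurons, had 3 mutant-only and no control-only region, and Ets1 had 2 of each.

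The 18 other sensory neuron genes had 310 regions, with 14 mutant-only (4.52%) and 14 control-only (4.52%). Of their 100 shared regions, 23 ranked higher and 35 lower in both Hoxa5-deficient libraries (23% and 35%, against 27.6% and 33.7%). The local background was lower at 23 (23%, against 12.9%) and higher at 16 (16%, against 31.9%). The neurotrophin receptor gene Ntrk2 had 4 mutant-only and 3 control-only regions, Runx1, a factor of pain-sensing neurons, had 4 and 1, and Etv1 had 2 and 0. At Shox2, 0 regions were mutant-only and 2 control-only. The 10 motor neuron genes had 11 mutant-only (8.73%, against 9.16%) and 0 control-only (against 3.5%) of 126 regions, led by Slc5a7, the choline transporter, with 3, then Isl1 and Lhx4 with 2 each. Of the 49 shared regions of the motor neuron genes, 13 ranked higher and 15 lower (26.5% and 30.6%, against 27.6% and 33.7%). Their local background was lower at 9 (18.4%, against 12.9%) and higher at 8 (16.3%, against 31.9%). Isl1 is in both the sensory and the motor neuron list.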

How the data were processed

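Per the submitters' processing notes, peaks were made on mm10 with MACS2 2.2.4, SAMtools 1.9, Bowtie2 2.3.4.3 and FastQC 0.11.9. Parameters are not given in the sources used here, nor is any shift for the Tn5 cut. Each library has its own deposited peak list, with a score capped at 1000, a fold enrichment ratio, and p and q on the −log10 scale. The lists held 192771 and 206114 summits in Hoxa5-deficient and 165866 and 163016 in control libraries, down to −log10 p of about 2.00. No peak row was identical in any pair of lists. Replicates are called biological in the series' design text.

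Tag counts at summits were recovered from the deposited fold and p (Poisson; at least 99.9995% of summits whole within 0.001). Depth is known only as the lowest background, which 38.7% to 47.9% of summits share. Regions were merged, assigned to 21887 RefSeq genes (GRCm38.p6) and ranked with Python 3.11.15, numpy 2.4.6, pandas 2.3.3 and scipy 1.17.1. Local background ratios had to differ by 0.02 or more. On simulated lists of well-separated regions 100% of 6000 returned to their class. Close intervals, nested genes and missed peaks were not simulated, so this does not measure how reliable the classes are. The p-values measure only the spread between 4 libraries; counts of regions have no test. Alternatives were a stricter threshold, equal list lengths, summit windows, nearer assignment, leaving out each library and other ranked values. The 7 genes and the lists were chosen with earlier results of these data known. Regions named with coordinates include all regions of 1 genotype, the strongest at each gene and those at gene starts. They also include the 5 shared regions per direction that differed most in rank, out of those without overlap between the genotypes. Others were named after their values were seen, as were the local background and the summit tags. In the longer lists up to 3 genes per direction are named, ties by symbol. Some genes of these lists are not reported here by name.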

Additional observations from a re-analysis of the deposited data

How the results depend on the processing

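Limits: 2 libraries against 2 cannot pass 0.05, absence of a peak depends on depth and threshold, and counts as small as these move with each choice. The cause of the moves below was not tested. The counts as reported were 7 mutant-only and 3 control-only regions, 10 shared regions ranked higher and 15 lower in both Hoxa5-deficient libraries, and local background higher at 6 and lower at 15. A minimum −log10 q of 5 gave 4 mutant-only, 6 control-only and 8 ranked lower. Equal numbers of peaks per list gave 8 control-only regions and a difference of -8.5 regions per library (6 as reported, Hoxa5-deficient minus control). Windows of 100 bp to each side of summits gave 11 mutant-only, 23 ranked lower and 10 with a higher local background. Within 20 kb of the body there were 2 mutant-only, 6 ranked higher, 9 ranked lower and 9 with a lower local background. Midpoints inside the body gave 1 mutant-only, 1 control-only, 5 ranked higher, 6 ranked lower, 7 with a lower local background and a difference of -1 region per library. With 1 region per 10 kb, 9 ranked lower and 8 had a lower local background. Without 1 library each, the remaining library stands for its genotype, which changes the shares of all regions too. Mutant-only regions numbered 9 without either control (8.91%, against 13.4% and 13.5% of all assigned regions). They numbered 16 without Hoxa5-deficient 2 (16.7%, against 19.8%) and 21 without Hoxa5-deficient 1 (21%, against 23.7%). Control-only regions numbered 5 without Hoxa5-deficient 1 (5%, against 5.50%) and 6 without Hoxa5-deficient 2 (6.25%, against 6.05%). They numbered 11 without control 1 (10.9%, against 13.1%) and 14 without control 2 (13.9%, against 15.1%). In the same runs 13 to 14 ranked higher, 19 to 22 ranked lower, 7 to 11 (the most without control 1) had a higher and 17 to 22 a lower local background, and the difference per library was 1.5 to 10.5 regions and -0.00596 to -0.0033 points of share. The share of lower local background at the 7 genes, 34.8% to 53.7% over these settings, stayed above that of all assigned shared regions, 10.7% to 21.5%. Ranks by tags gave 9 higher and 19 lower, and ranks by fold 12 and 14; both, and the local background, were chosen after the data were seen. No paired analysis was possible because the replicate numbers are only names in the labels and the counts come from no fitted model.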

Other observations

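Beyond the 100 kb limit, 22 further regions had Ednrb as their nearest protein-coding gene, of which 4 were mutant-only and 1 control-only. Pou4f1 had 12 such regions, 2 of them mutant-only and none control-only, and Foxd3 had 5 of neither kind. Over all regions of the series, 10.3% were mutant-only and 3.42% control-only. Ednrb and Pou4f1 are neighbours on chromosome 14, 617 kb apart with no protein-coding body between them. The nearest region outside the limit lay 104 kb from Ednrb and was held by all 4 libraries, and the farthest inside it lay 98.3 kb from Pou4f1 and was held by a single library.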
